A study of Macaca mulatta with 35 samples.

Results

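The 46 transcripts described here were chosen from 49537 by a rule that asked for a higher mean level in granulosa cells than in both cumulus cells and oocytes of the rhesus monkey ovary. They were chosen from the measured levels themselves. Levels are TPM (estimated reads scaled by transcript length and library total), averaged over all libraries of a cell type as log2(TPM + 1). A transcript was taken when its granulosa libraries held a mean of at least 50 estimated counts, its cumulus and oocyte means lay within 1 log2 unit of each other, and its granulosa mean exceeded the higher of those 2 by more than 1 log2 unit. This excess is called the gap below. Of 18165 transcripts that reached the count, 8800 met the second condition and 46 of these the third, so the upper limit of 150 members was not reached. Without the second condition, 58 transcripts reached both the count and the gap. Because the gap chose the members, differences between cell types are given as a description, with no test.

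The study sequenced RNA of 3 cell types from small, medium and large antral follicles, which contain a fluid-filled cavity. Ovaries came from adult females at necropsy, and cells were taken from individual follicles without any treatment named in the labels. The 9 groups of cell type and follicle size held 35 libraries, 4 per group except for cumulus small with 3. The RNA came from PicoPure extraction, and libraries were made with the amplifying Ovation RNA-Seq System v2. Each library carries a number from 1 to 4 in its title, which the labels do not explain and which is called the title number below. No label ties libraries to an animal or follicle, so p-values measure the spread between these samples and part of it may be technical. In bulk RNA, fewer cells of a type and less RNA per cell cannot be told apart. The tables list Ensembl transcript IDs that the files do not pair with gene names. No member has a gene name here, and neither the cell types nor the members were checked against marker genes.

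Granulosa cells line the wall of the antral follicle, divide and convert androgens to oestrogen in response to follicle-stimulating hormone. Cumulus cells arise from the same lineage but surround the oocyte, stay coupled to it through gap junctions and receive growth factors that it secretes. The oocyte is the germ cell of the follicle and stores much of the RNA used after fertilization. A transcript high in granulosa cells alone would therefore separate follicle wall cells both from their close relatives and from the germ cell.

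Libraries held 20780476 to 52350387 estimated counts. Of the 12 granulosa libraries, 4 stood apart over the whole profile: the 3 with title number 1 and the large-follicle library with title number 3 (granulosa large 3). Across the 18165 transcripts, Pearson correlations of these 4 were 0.918 to 0.931 with the cumulus mean and 0.887 to 0.921 with the mean of the other granulosa libraries, and each was closer to the cumulus mean. The other 8 correlated at 0.776 to 0.865 with the cumulus mean and 0.853 to 0.947 with the granulosa mean, and all 11 cumulus libraries were closer to the cumulus mean. Depth overlapped, with 22067194 to 33772697 counts in the 4 and 26743457 to 33022905 in the 8. What sets these 4 libraries apart was not tested, and results that rest on them are given with and without them.

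Most members were transcripts of low abundance that were present in some granulosa libraries and near 0 in others. For 44 of the 46, the granulosa mean ran from 1.81 to 111 TPM with a median of 4.75 TPM, against medians of 0.840 TPM in cumulus cells and 0.456 TPM in oocytes. The gap ran from 1.001 to 2.64 with a median of 1.12. It was above 1.5 for 6 members and below 1.1 for 19. At the edge of the list, ENSMMUT00000100552.1 (gap 1.002) and ENSMMUT00000053530.2 (1.001) were the last inside, and ENSMMUT00000024977.4 (0.998) and ENSMMUT00000066991.2 (0.994) the first outside, so the list ends within a continuous range of values. Cumulus cells held the higher of the other 2 means for 33 members and oocytes for the remaining ones.

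**Figure D1:**
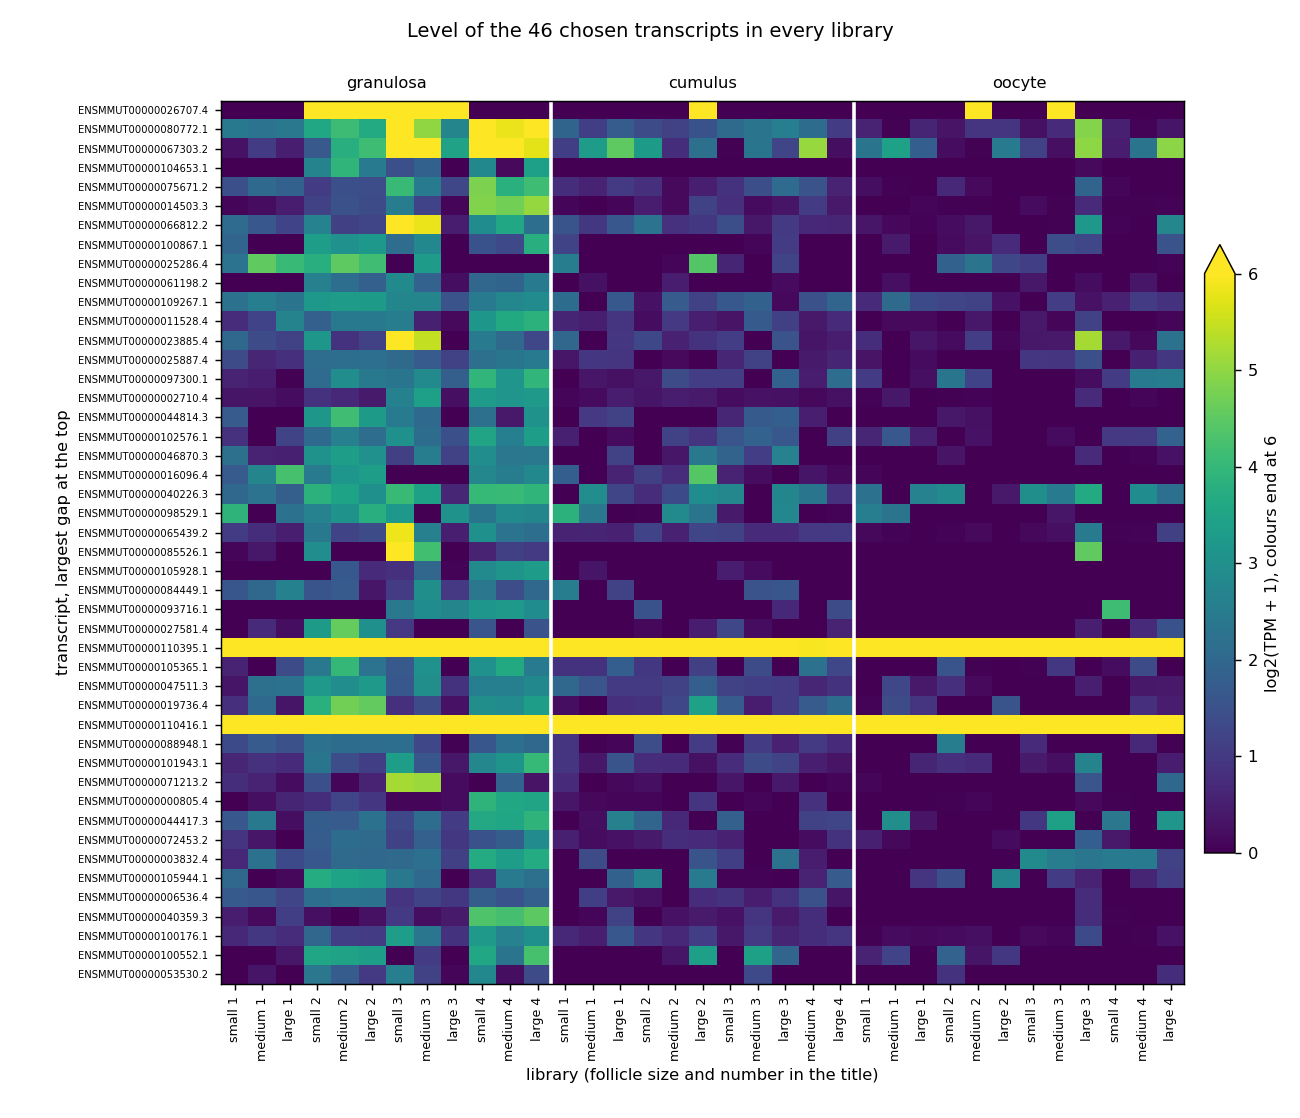
Level of each of the 46 members (one line each, largest gap at the top) in each of the 35 libraries, as log2(TPM + 1) with colours ending at 6; libraries are grouped by cell type and ordered by title number. The granulosa libraries with title number 1 and granulosa large 3 are dark for most members, and 2 members are bright in every library of all 3 cell types.

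The word restricted did not describe the members. No member had all 12 granulosa libraries above all 23 cumulus and oocyte libraries, and among all 18165 transcripts 1 did (0.00551%). Only 5 members reached 1 TPM in every granulosa library, and 3 of these also did so in every cumulus library and 2 in every oocyte library. At least one granulosa library listed 0 for 19 members. In the other direction, 1 member (ENSMMUT00000085526.1) was listed at 0 in every cumulus library and 2 (ENSMMUT00000105928.1 and ENSMMUT00000084449.1) in every oocyte library. With 3 counts over the group as the floor, those absences allow levels of up to 0.00257, 0.00696 and 0.0114 TPM, counting error only, since amplified reads without molecular identifiers are not independent molecules.

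The number of members detected divided the granulosa libraries. In the 8 libraries, 38 to 43 members reached 1 TPM. Granulosa small 1 held 21 such members, medium 1 held 19, large 1 held 20 and large 3 held 16. These 4 values lay within the ranges of the other cell types or close to them: cumulus libraries held 9 to 22 (median 13) and oocyte libraries 5 to 18 (median 8). Summed over the 44 less abundant members, the level was 444 to 950 TPM in the 8 granulosa libraries and 69.6 to 140 TPM in the 4. Cumulus libraries summed to 25.6 to 181 TPM and oocyte libraries to 14.1 to 173 TPM. Without the 4 libraries, the rule kept 45 of the 46 and took 124 transcripts in all.

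**Figure D2:**
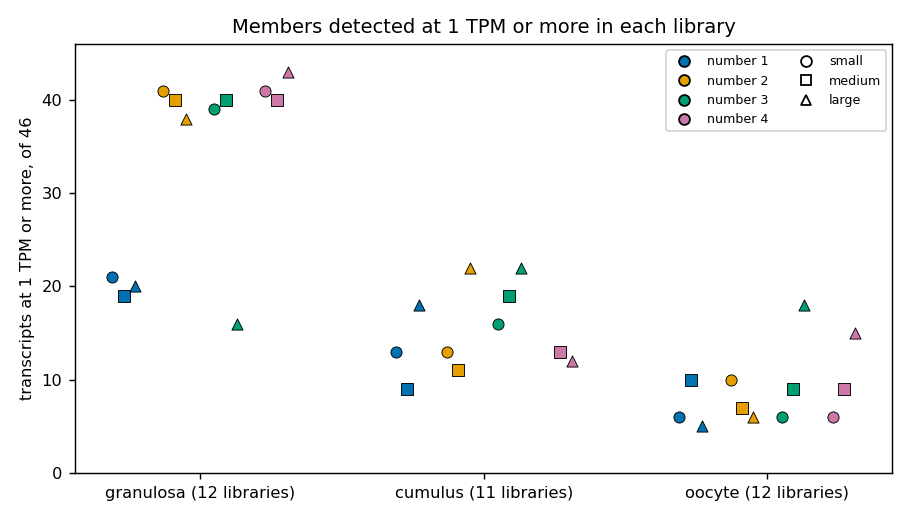
Number of members at 1 TPM or more (vertical axis, of 46) in each library, by cell type, with colour for the title number and shape for the follicle size. Of the granulosa libraries, 8 lie at 38 to 43 members and 4 lie at 16 to 21, next to the cumulus libraries at 9 to 22.

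With the 4 libraries left out, all 8 remaining granulosa libraries lay above all cumulus and oocyte libraries for 5 members, against 0.105% of the 18165 transcripts. These 5 are named after their values were seen. The members were chosen for a higher granulosa mean, and the 4 libraries were picked out for lying closer to the cumulus mean. Both choices favour such a separation, so the difference from that share supports nothing about the list. ENSMMUT00000061198.2 had the clearest separation, with a lowest value of 2.58 TPM in the 8 against a highest value of 0.381 TPM in the other cell types, and at most 0.168 TPM in the 4 granulosa libraries left out. ENSMMUT00000109267.1 was at 4.42 TPM or more against at most 3.32 TPM, and ENSMMUT00000102576.1 at 3.17 TPM or more against at most 2.71 TPM. For ENSMMUT00000109267.1 the libraries left out were not all low. Granulosa small 1, medium 1 and large 1 held 3.72, 4.96 and 3.96 TPM, and large 3 held 1.91 TPM. ENSMMUT00000025887.4 was at 2.32 TPM or more against at most 1.74 TPM, and ENSMMUT00000014503.3 at 1.25 TPM or more against at most 1.23 TPM. Apart from ENSMMUT00000061198.2, these margins were small beside the spread within granulosa cells.

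Of the members, 2 stood apart in abundance and held nearly all of the members' summed share. ENSMMUT00000110395.1, 297 bases long, and ENSMMUT00000110416.1, 684 bases long, had granulosa means of 40111 and 39122 TPM. All 46 members together held 7.97% ± 3.62 (SD, n = 12) of granulosa TPM, 4.16% ± 1.99 (SD, n = 11) of cumulus TPM and 3.14% ± 1.98 (SD, n = 12) of oocyte TPM. Without the 4 libraries, the granulosa share was 7.71% ± 4.38 (SD, n = 8). As a share of estimated counts, which is not scaled by length, it was 2.82% ± 1.03 (SD, n = 12) over all granulosa libraries.

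ENSMMUT00000110395.1 was the member whose level followed the title number most closely. In granulosa cells it was at 39003 to 65015 TPM in the libraries with title number 1, 58127 to 75834 TPM in number 2 and 41262 to 46334 TPM in number 3. In number 4 it was at 383, 134 and 252 TPM in small, medium and large follicles. The number 4 libraries thus lay far below all others. Oocytes showed the same order, with 263, 194 and 103 TPM in number 4 and 13882 to 57527 TPM in the other 9 libraries. Cumulus cells were at 60.2 TPM in medium 4 and 108 TPM in large 4, and the library labelled cumulus small 3 was also low, at 115 TPM, while the other 8 held 26017 to 34432 TPM. No cumulus small library carries the number 4, and over the whole profile the deviations of cumulus small 3 from its group mean correlated best with those of cumulus large 4 (Pearson r 0.313). The r was 0.166 with cumulus medium 4, and 0.056 and -0.185 with cumulus medium 3 and large 3, which share its number. In cumulus cells only 1 of 11 libraries correlated best with one of its own number, and the median r of same-number pairs was 0.023. These r values therefore do not assign cumulus small 3 to a number. Within a title number the gap of this member was 0.66, 1.05, 1.27 and 0.43 for numbers 1 to 4. The number 3 value rests on cumulus small 3, since cumulus medium 3 and large 3 were at 32231 and 29624 TPM. The low level of cumulus small 3 also lowered the cumulus mean that the rule used, and the place of this member on the list depended on it.

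ENSMMUT00000110416.1 varied least of all members over the granulosa libraries, with an SD of 0.46 on the log2 scale. Its granulosa level was 29100 to 40327 TPM in number 1, 48261 to 54124 TPM in number 2, 45149 to 52455 TPM in number 3 and 20758 to 28219 TPM in number 4. The number 4 libraries were again the lowest, but by much less than for the first transcript. The same libraries were low elsewhere: cumulus small 3, medium 4 and large 4 held 10240 to 12401 TPM against 18018 to 25656 TPM in the other 8, and oocyte number 4 held 8562 to 9812 TPM against 11030 to 25461 TPM. Granulosa large 3, low for most other members, was not low for either of these 2.

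**Figure D3:**
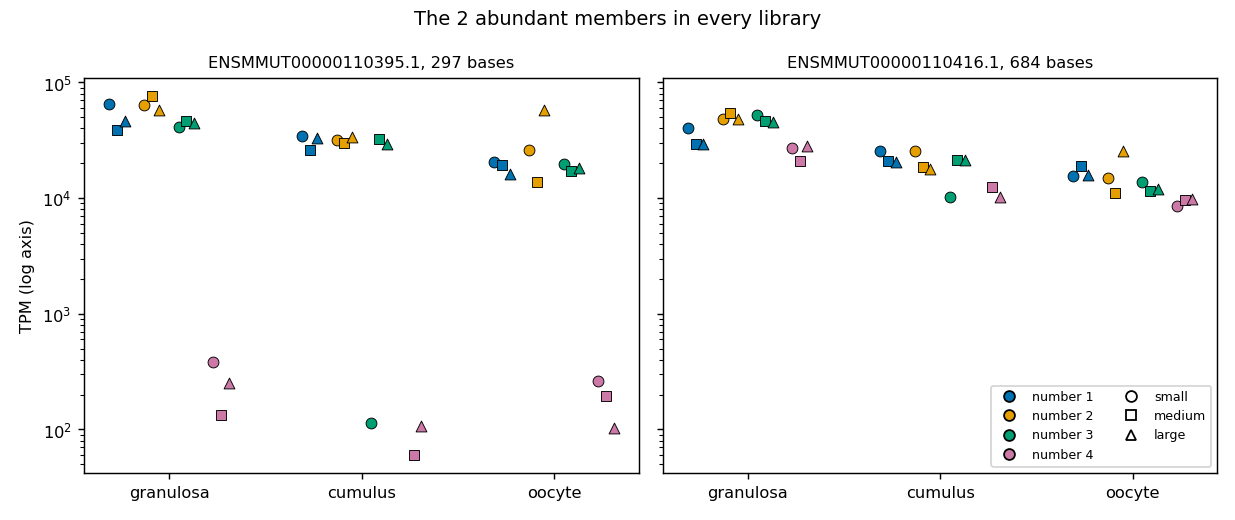
TPM on a log axis of the 2 abundant members, ENSMMUT00000110395.1 (left) and ENSMMUT00000110416.1 (right), in every library, by cell type, with colour for the title number and shape for the follicle size. On the left the number 4 libraries and cumulus small 3 lie at 60.2 to 383 TPM and all others at 13882 TPM or more; on the right the same libraries are the lowest of their cell type, by less.

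The transcript with the largest gap, ENSMMUT00000026707.4 (gap 2.64), rested on few reads. It is 204 bases long with an effective length of 18.2 bases, so a mean of 73.5 estimated counts in granulosa libraries came to 111 TPM. It was listed at 0 in all granulosa libraries with title numbers 1 and 4. In number 2 it was at 291, 285 and 385 TPM in small, medium and large follicles, and in number 3 at 105, 171 and 91.5 TPM. The same numbers held its values in the other cell types: cumulus large 2 was at 76.7 TPM, oocyte medium 2 at 162 TPM and oocyte medium 3 at 95.1 TPM, and no other cumulus or oocyte library exceeded 1 TPM.

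ENSMMUT00000080772.1 (gap 2.62, 4389 bases) was the member with a large gap and many reads, a mean of 5570 estimated counts per granulosa library. Its granulosa levels were lowest in number 1, at 4.39, 3.85 and 4.26 TPM in small, medium and large follicles, and 10.8, 16.3 and 11.6 TPM in number 2. Number 3 gave 140, 31.2 and 5.59 TPM, and number 4 gave 91.4, 55.5 and 90.2 TPM. Cumulus libraries ran from 1.11 to 4.92 TPM (median 2.36), and oocyte libraries from 0.0232 to 28.8 TPM (median 0.478), and the lowest granulosa library was exceeded by oocyte large 3, cumulus medium 3 (3.99 TPM) and cumulus large 3 (4.92 TPM). Its gap within each title number was 0.77, 2.43, 2.64 and 4.69 for numbers 1 to 4.

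ENSMMUT00000067303.2 (gap 1.82, 496 bases) was low in the number 1 libraries as well. It was at 0.223, 1.095 and 0.426 TPM there, at 2.20, 12.6 and 16.6 TPM in number 2, at 98.8, 153 and 9.95 TPM in number 3, and at 91.8, 132 and 52.7 TPM in number 4. Cumulus medium 4 reached 32.9 TPM and oocyte large 3 reached 30.5 TPM, above all granulosa libraries of numbers 1 and 2. Within number 1, cumulus small, medium and large held 1.16, 8.86 and 21.7 TPM, and the gap was -2.35. ENSMMUT00000104653.1 (gap 1.55, 2043 bases) was the cleanest by its absence elsewhere. It stayed below the floor of 3 counts over the group in cumulus cells (0.00508 TPM), and all oocyte libraries were listed at 0 except oocyte large 3 at 0.108 TPM. In granulosa cells it was at 0 in number 1, 5.47, 14.3 and 4.52 TPM in number 2, 1.76, 2.64 and 8.83e-06 TPM in number 3, and 6.01, 0.107 and 9.52 TPM in number 4. Its 12 granulosa libraries and the 23 others overlapped by 0.15 log2 units, the least of all members.

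The question whether the excess in granulosa cells recurred in every follicle size was read from the same libraries and is a description. The granulosa mean was the highest of the 3 cell types in all 3 sizes for 40 members. The gap exceeded 1 for 37 members in small follicles (median gap 1.44), 34 in medium follicles (1.37) and 18 in large follicles (0.85). The large-follicle group holds 2 of the 4 libraries that stood apart. Without the 4, the counts were 39, 40 and 36, and the median gaps 1.76, 1.66 and 1.74, so the smaller gap in large follicles rested on those libraries.

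By title number the excess was far from even. Within number 1 the gap exceeded 1 for 4 members, within number 2 for 32, within number 3 for 20 and within number 4 for 37. The median gaps were 0.19, 1.36, 0.79 and 1.83. No member had a gap above 1 in all 4 numbers: 9 did so in 3 numbers, 29 in 2 and 8 in 1. The highest granulosa mean fell in number 2 for 20 members and in number 4 for 20, and the lowest fell in number 1 for 33.

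**Figure D4:**
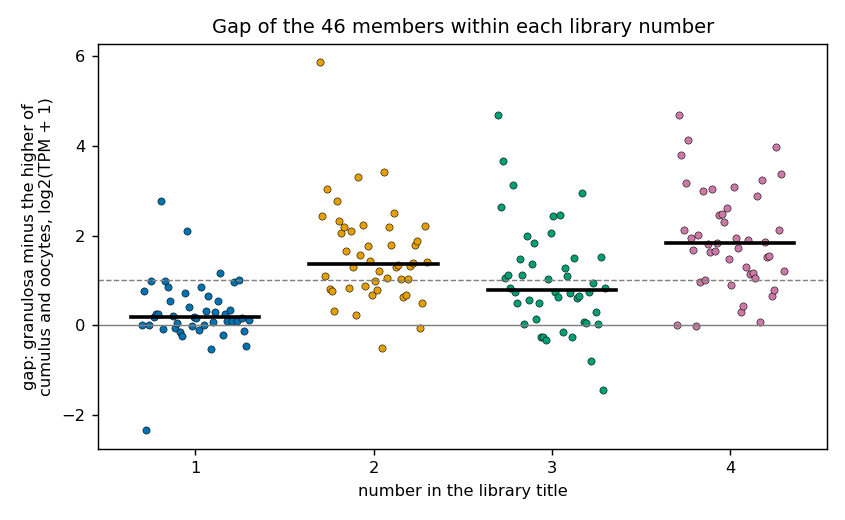
Gap of each of the 46 members (points) computed within each title number, in log2(TPM + 1) units, with the median as a bar, 0 as a solid line and the threshold of 1 as a dashed line. Medians are 0.19, 1.36, 0.79 and 1.83 for numbers 1 to 4, and 4, 32, 20 and 37 members lie above the dashed line.

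Title numbers within granulosa cells were compared with follicle size in the model. The rule did not use the number, but it used the mean over the same 12 libraries, so a member could enter the list through the libraries of 1 number and then had to differ between numbers. The calls are therefore a description of the members and support nothing about the list. Of the 46 members, 10 differed between numbers (edgeR quasi-likelihood test, adjusted p under 0.05), against 1334 of 28721 transcripts tested (4.64%). The 2 abundant members were among them, at adjusted p = 0.00521 for ENSMMUT00000110395.1 and 0.0488 for ENSMMUT00000110416.1. The count of calls depended on single libraries, for the members as for all transcripts. It was 2 members of 175 transcripts called without granulosa large 4, and 18 of 1388 without granulosa large 3. Without any one of small 1, small 2, small 4, medium 1, medium 2, large 1 or large 2 it was 3 to 6 members, with 123 to 205 transcripts called. Without the 4 libraries that stood apart, or without number 4, it was 0 members and 0 transcripts. It was 1 member of 29 transcripts without number 1, 1 of 44 without number 2 and 15 of 1595 without number 3. It also differed by test, with 20 calls in limma-voom (21.2% of all transcripts) and 32 in DESeq2 (17.8%).

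The 8 other members that differed did not share one pattern. They are named here after their values were seen, except where given above. High in number 4 was ENSMMUT00000040359.3, at 19.5, 17.9 and 21.3 TPM in small, medium and large follicles against at most 1.16 TPM in the other 9 granulosa libraries. Its highest value in any cumulus or oocyte library was 1.28 TPM, and its gap within numbers 1 to 4 was 0.15, -0.07, 0.02 and 3.97, so it met the rule only through number 4 and its call restates that choice. ENSMMUT00000000805.4 had the same shape, at 13.9, 10.9 and 10.4 TPM in number 4 and at most 1.40 TPM elsewhere in granulosa cells. ENSMMUT00000002710.4 was at 8.99, 7.77 and 8.32 TPM in number 4, but granulosa small 3 (5.23 TPM) and medium 3 (9.40 TPM) were near it and the remaining libraries were at 0.828 TPM or less.

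Other members were absent from whole numbers. ENSMMUT00000093716.1 was at 0 in all 6 granulosa libraries of numbers 1 and 2 and at 4.33 to 8.37 TPM in those of numbers 3 and 4. Oocyte small 4 held 16.5 TPM of it, above every granulosa library, while all other oocyte libraries were at 0. Cumulus libraries reached at most 1.83 TPM. ENSMMUT00000016096.4 was at 0 in number 3 and at 2.28 to 18.1 TPM in the other 9. ENSMMUT00000026707.4, at 0 in numbers 1 and 4, and ENSMMUT00000067303.2, low in number 1, were called too. High in number 2 was ENSMMUT00000019736.4, at 13.0, 25.4 and 22.6 TPM in small, medium and large follicles, against 6.39 to 9.10 TPM in number 4 and at most 3.12 TPM in numbers 1 and 3. The pattern reached one cumulus library, cumulus large 2, whose 9.73 TPM exceeded all other cumulus libraries (at most 3.36 TPM). Cumulus large 2 was also the highest cumulus library for ENSMMUT00000016096.4, at 20.4 TPM, above every granulosa library.

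**Figure D5:**
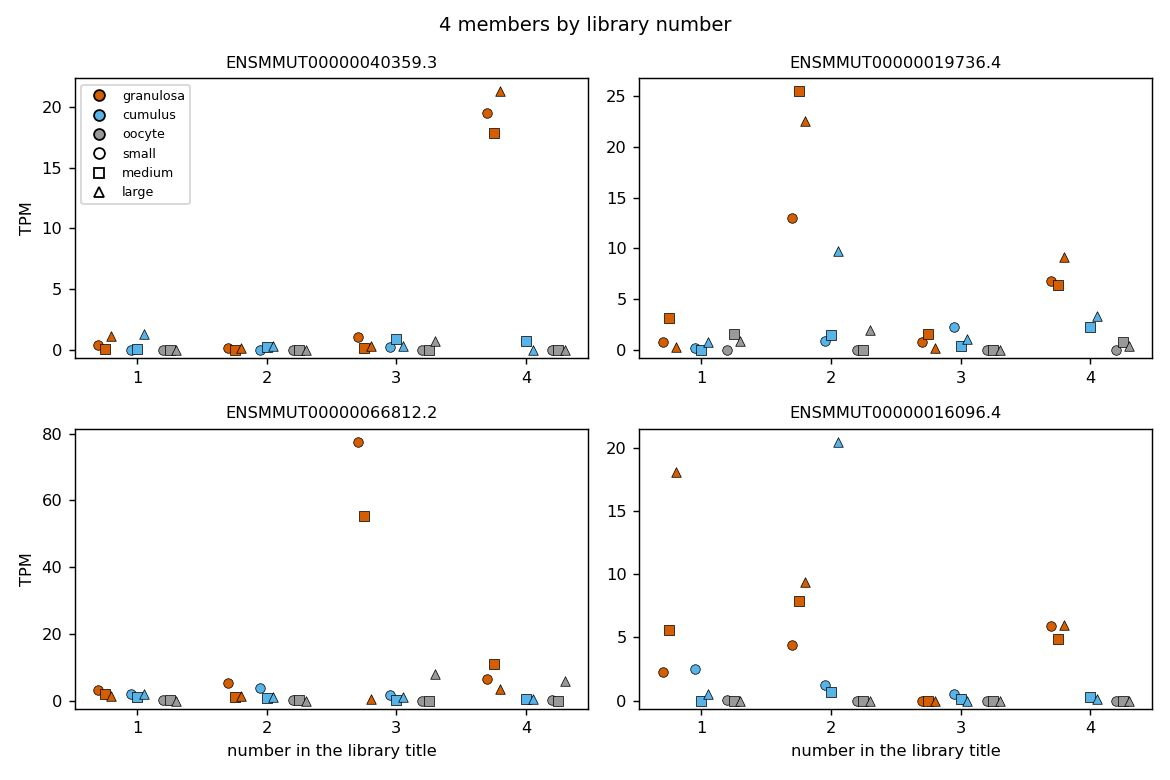
TPM of 4 members in every library against the title number, with colour for the cell type and shape for the follicle size. ENSMMUT00000040359.3 is high in granulosa number 4, ENSMMUT00000019736.4 in number 2, ENSMMUT00000066812.2 in granulosa small 3 and medium 3, and ENSMMUT00000016096.4 is at 0 in all 3 granulosa libraries of number 3.

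Counted without a model, the 3 granulosa libraries of number 4 lay above the other 9 for 9 members (9.87% of the 18165 transcripts did so) and below them for 2 (0.732%). Those of number 2 lay above for 8 members (1.93%) and below for 0 (4.06%). Those of number 1 lay above for 0 members (12.4%) and below for 7 (1.24%), and those of number 3 above for 0 (0.501%) and below for 2 (6.26%). Number 1 thus showed the opposite balance in the members from that over all transcripts, where it was more often above than below. The members were chosen for a high granulosa mean, which these counts share, and the difference from other transcripts was not tested.

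Granulosa small 3 was the highest granulosa library for 9 members. A group of 5 of them is described here, all low in granulosa large 3, and 4 of these were high in granulosa medium 3 too. They were grouped after their values were seen and are described without a test. The remaining members of the 9 also fell from small 3 to large 3. They were ENSMMUT00000080772.1 (140 to 5.59 TPM), ENSMMUT00000040226.3 (15.8 to 0.553 TPM), ENSMMUT00000100176.1 (9.36 to 0.828 TPM) and ENSMMUT00000061198.2 (6.34 to 0.168 TPM). ENSMMUT00000085526.1 was at 203 TPM in granulosa small 3 and 17.2 TPM in medium 3, but 1.96e-06 TPM in large 3, and no other granulosa library exceeded 6.68 TPM. ENSMMUT00000023885.4 was at 90.3, 42.7 and 0.0003 TPM in the same libraries. ENSMMUT00000066812.2 gave 77.5, 55.5 and 0.380 TPM, and ENSMMUT00000071213.2 gave 35.3, 33.5 and 0.121 TPM. ENSMMUT00000065439.2 was high in small 3 only, at 57.0, 5.11 and 0.426 TPM, with 7.003 TPM in granulosa small 4. In oocytes, the large-follicle library with the same number was the highest for 4 of the 5, at 22.3 TPM for ENSMMUT00000085526.1, 35.4 TPM for ENSMMUT00000023885.4, 8.12 TPM for ENSMMUT00000066812.2 and 4.57 TPM for ENSMMUT00000065439.2. For ENSMMUT00000071213.2 it held 1.9996 TPM, below oocyte large 4 at 3.04 TPM. For ENSMMUT00000085526.1 all other oocyte libraries were at 0. Over all members, oocyte large 3 was the highest oocyte library for 20 of 46 and lay above granulosa large 3 for 23. In the other 11 pairs of the same size and number, an oocyte library exceeded its granulosa library for 0 to 9 members. Cumulus large 3 lay above granulosa large 3 for 22 members as well, and cumulus large 1 lay above granulosa large 1 for 17. Granulosa large 3 and large 1 are among the 4 libraries that were closer to the cumulus mean. The same shares were not counted over the 18165 transcripts, so whether these counts are particular to the members is not known. Without oocyte large 3 and cumulus small 3, the rule kept 37 of the 46.

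The members varied more between granulosa libraries than other transcripts of like level. The SD of log2(TPM + 1) over the 12 libraries had a median of 1.35 (range 0.46 to 4.01), against 0.518 for the 11411 transcripts whose granulosa mean lay in the range of the 44 less abundant members. Over the 8 libraries it was 1.12 against 0.442. The rule used the mean over these same libraries, and a member could enter through a few high ones. A larger spread can follow from that choice, so the contrast is a description and was not tested. Over the 12 libraries, the 1035 pairs of members had a median Pearson r of 0.363, with 37.6% above 0.5 and 20.4% below 0. Without the 4 libraries the median r was 0.039, with 23.3% above 0.5 and 48.6% below 0. Most of the positive correlation over the 12 libraries thus rested on those 4. The members most like the most abundant one, ENSMMUT00000110395.1, over the 12 libraries were ENSMMUT00000110416.1 (r = 0.788), ENSMMUT00000025286.4 (0.672) and ENSMMUT00000026707.4 (0.588), and over the 8 libraries their r was 0.977, 0.794 and 0.991. Among the 8, the 3 number 4 libraries held 134 to 383 TPM of ENSMMUT00000110395.1 and the rest 41262 to 75834 TPM. Those 3 were also lowest for ENSMMUT00000110416.1 and at 0 for ENSMMUT00000026707.4. The r over the 8 thus rest largely on the split between number 4 and the rest. ENSMMUT00000025286.4 was at 0 in all 3 number 4 libraries and in granulosa small 3 and large 3, and at 3.86 to 22.1 TPM in the other 7. These correlations share the libraries from which the members were chosen and are given as a description.

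Follicle size, the comparison the study was built on, was not named in the rule that chose the members. The rule did use the mean over the same 12 granulosa libraries, so a member could enter through libraries of 1 size. The calls and the unadjusted counts below are therefore a description of the members. In granulosa cells, 0 of 46 members differed in medium against small follicles (1 of 28721 transcripts did, 0.00348%), in large against medium (0%) or in large against small (0.00348%), by edgeR's quasi-likelihood test at an adjusted p under 0.05. At an unadjusted p under 0.05 there were 1, 3 and 5 of the 46 members, against 2.28%, 1.09% and 2.17% of all transcripts tested. DESeq2 also called 0 members, with 0.169%, 0.195% and 0.206% of all transcripts called in the 3 comparisons, and limma-voom called 0 members and 0% of all transcripts in each. The median log2 change of the members was 0.02, -0.38 and -0.23 in these comparisons, and that of all transcripts tested was -0.02, 0.00 and -0.02. The fits above left the title number out of the model, although granulosa libraries of the same number were correlated. With the number as a block, edgeR called 0 members, and 1, 1 and 1 had an unadjusted p under 0.05. Of all transcripts, 4.67%, 1.65% and 3.83% did so. The members' medians with the block were -0.22, -0.56 and -0.46. Without the 4 libraries they were 0.08, 0.02 and 0.16. Other libraries and the test moved them as much: large against medium was 0.10 without granulosa medium 2, and large against medium and large against small were -1.31 and -1.10 without granulosa large 4 and -1.15 and -1.05 in limma-voom. The members thus showed no stable direction with size. On simulated counts, 16% of transcripts changed 4-fold and 62% of those changed 16-fold were recovered for large against small, and 0% of those changed 2-fold. The simulated libraries were independent, without the link between libraries of the same title number.

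The smallest p-values with size belonged to members of the group led by granulosa small 3. ENSMMUT00000065439.2 was at 1.07, 4.41, 57.0 and 7.003 TPM in the small-follicle libraries numbered 1 to 4, at 0.714, 1.36, 5.11 and 3.85 TPM in the medium ones and at 0.416, 1.62, 0.426 and 3.48 TPM in the large ones. Its log2 change was -2.86 ± 1.28 (SE) in medium against small follicles and -3.82 ± 1.33 in large against small (edgeR adjusted p = 0.9998 and 0.99999). The groups overlapped, and without granulosa small 3 the 2 changes were -0.41 and -1.38. ENSMMUT00000066812.2 was at 2.07, 1.19, 55.5 and 10.9 TPM in medium follicles and 1.30, 1.39, 0.380 and 3.53 TPM in large ones, a log2 change of -3.63 ± 1.501 (SE, edgeR adjusted p = 0.9998). Without granulosa medium 3 it was -1.30.

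In cumulus cells, 40 members passed the filter on low counts and 0 differed in any of the 3 size comparisons (0% of 31869 transcripts). In oocytes 23 passed and 0 differed (0% of 28769 transcripts). DESeq2 called 2 members in cumulus cells, where it called 0.491%, 0.278% and 0.459% of all transcripts in medium against small, large against medium and large against small. In oocytes it called 0 members and 0.231%, 0.217% and 0.243% of all transcripts. ENSMMUT00000071213.2 was at 0.641, 0.195 and 0.279 TPM in small follicles and listed at 0 in all 4 medium ones. ENSMMUT00000100552.1 was listed at 0 in all 3 small-follicle libraries, at 0, 0.261, 9.62 and 7.43e-09 TPM in medium 1 to 4, and at 0, 9.49, 2.87 and 0 TPM in large 1 to 4. In oocytes, the member with the smallest p in medium against small follicles was ENSMMUT00000019736.4, whose oocyte values did not exceed 1.97 TPM. For both comparisons with large follicles it was ENSMMUT00000105365.1, at most 0.00621 TPM in large follicles and at most 1.96 TPM elsewhere. At unadjusted p under 0.05 there were 4, 2 and 0 of the 40 cumulus members in medium against small, large against medium and large against small, against 3.69%, 3.66% and 3.72% of all transcripts tested. In oocytes there were 1, 2 and 7 of the 23 members, against 1.26%, 2.12% and 1.90% of all transcripts. The rule used the means over these same oocyte libraries, and none of the 7 was called after adjustment. Their excess over the share of all transcripts was not tested.

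The title number was then tested in the other cell types, a choice made after the granulosa libraries were seen. In oocytes, 2 of 23 members differed between numbers against 81 of 28769 transcripts (0.282%): ENSMMUT00000110395.1 (edgeR adjusted p = 0.00278) and ENSMMUT00000110416.1 (0.0321), both lowest in number 4. Limma-voom called 3 members there (2.03% of all transcripts) and DESeq2 called 4 (7.17%). In cumulus cells 0 of 40 differed (0%) in edgeR, and DESeq2 called 1 member (0.607% of all transcripts). The number 3 group there includes cumulus small 3, which was low for both abundant members. The member with the smallest p was ENSMMUT00000046870.3 (edgeR adjusted p = 0.9999), at 1.12 to 5.35 TPM in the 3 libraries of number 3 and at 0 to 4.33 TPM in the others.

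In length the members were like other transcripts, with 204 to 11921 bases and a median of 2731.5 against 2900 for the 18165. The 3 shortest, under 500 bases, included the most abundant member and the one with the largest gap, and 1.01% of the 18165 were that short. Estimated counts were whole in every library, within 1e-06, for ENSMMUT00000002710.4. For ENSMMUT00000110416.1 they were listed as whole too, but large values are deposited without decimals, so this does not show that its reads were undivided. For the other 44 members, counts were not whole, reads were divided among transcripts that share sequence, and a value of 0 can reflect that division.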

How the data were processed

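Total RNA of 35 libraries was analysed from 1 table per library. Per the submitters' processing notes, the tools were bcl2fastq 2.19.1, which makes read files, and kallisto 0.44.0, which assigns reads to transcripts. The transcript index, genome build and annotation were not given in the sources used here. The deposited estimated counts divide a read among the transcripts it fits, and the deposited TPM values scale them by effective length and library total, per the file headers. TPM served for descriptions, as log2(TPM + 1), and estimated counts, rounded to whole numbers, for tests. Of the transcript IDs, 0 matched the tables of gene names used here, so planned gene and marker lists were not used and tests were made per transcript.

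Tests used edgeR 4.0.16 in R 4.3.3 (quasi-likelihood, robust, TMM factors, default filter with a minimum count of 10) on all transcripts of 1 cell type, with Benjamini-Hochberg adjustment over all transcripts tested, called at an adjusted p under 0.05. Follicle sizes were compared as group means, and the title number as a joint test with size in the model. Alternatives were RLE factors, no filter, DESeq2 1.42.0, limma 3.58.1 (voom with sample weights), the replicate block, all 35 libraries in one fit, and leaving out libraries. On simulated counts, 52% of transcripts changed 16-fold between granulosa title numbers were recovered, and 24% of those changed 8-fold. The simulated spread was estimated with follicle size alone in the model, so it included the differences between title numbers. These shares therefore do not measure how well the number test finds changes in these data.

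In granulosa cells, every pair of libraries with the same title number had correlated deviations from the group means (r 0.245 to 0.574, different numbers -0.446 to 0.257). All 12 libraries correlated best with one of their own number. This link comes from the data and the labels do not explain it. The main size tests did not use it, and it entered only the fit with the number as a block. No 2 libraries of a group agreed within counting noise (lowest chi-square per degree of freedom 64.0). Transcripts named are those with the 4 largest gaps, the 3 highest granulosa means, the edge of the list, the smallest p per comparison, the extremes of spread and separation and the 3 nearest to the most abundant member, and others are said to be chosen after their values were seen. Since 46 members were found, the edge is the gap threshold and not the limit of 150. The members, lists and tests were chosen with earlier results of these data known.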

Additional observations from a re-analysis of the deposited data

Results flagged for a closer look

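Within groups of 4 libraries, the gap between an extreme library and its nearest neighbour was set against the group's range (Dixon's criterion at the 95% level). This was done for the named members in granulosa cells, the summed share, and the summed TPM of the 44 less abundant members. Of 64 groups, 16 of them for the 2 sums, 10 were picked out, none for the summed TPM of the 44. Chance picks out about 1 in 20 groups of unselected values, but several of these members were named for differences between title numbers or sizes that single libraries set, so that rate does not apply here. Of the 10, 3 belonged to ENSMMUT00000040359.3, whose number 4 library stood above the other 3 in small (19.5 TPM), medium (17.9 TPM) and large (21.3 TPM) granulosa follicles. Granulosa small 3 stood above its group for ENSMMUT00000065439.2 (57.0 TPM, the others 1.07 to 7.003), ENSMMUT00000066812.2 (77.5 TPM, the others 3.26 to 6.61) and ENSMMUT00000071213.2 (35.3 TPM, the others 0 to 1.75). For the last of these, granulosa medium 3 did so too (33.5 TPM, the others 0.0664 to 2.68). ENSMMUT00000080772.1 was picked out in granulosa large 4, at 90.2 TPM against 4.26 to 11.6 TPM. The summed share of the members was low in cumulus medium 4 (1.25% of TPM, the others 4.69% to 5.38%) and cumulus large 4 (1.04%, the others 5.11% to 5.41%), the 2 number 4 libraries of that cell type, in which ENSMMUT00000110395.1 was low. Groups of 3, such as cumulus small, were not examined this way.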

How the results depend on the processing

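The member list depended on its settings. Of the 46, 24 were kept with a pseudocount of 0.1 and 5 with a pseudocount of 5, and 29, 30 and 21 without the libraries numbered 2, 3 and 4. Leaving out 1 library kept 32 (without granulosa large 4) to 45. The other settings, including medians, count minimums, CPM and TMM-scaled TPM, moved the count by less than 1.5 times. The summed granulosa share was 2.82% as CPM of the estimated counts and 7.50% to 8.50% with 1 library left out. Members with fully separated granulosa libraries numbered 1 by CPM, 0 to 1 with 1 library left out and 5 without the 4 libraries that stood apart.

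Members differing between granulosa title numbers numbered 20 in limma-voom, 32 in DESeq2, 2 to 18 with 1 library left out (123 to 1388 of all transcripts), 1 without number 1 (29 of all), 1 without number 2 (44), 0 without number 4 (0) and 0 without the 4 libraries (0). The fits without libraries have fewer samples, and calls over all transcripts moved with those of the members. DESeq2 called 4 members by number in oocytes, 1 by number in cumulus cells and 2 by size in cumulus cells. With the replicate block, 0 members were called in any size comparison of granulosa cells, cumulus cells or oocytes, as without it, and leaving out 1 library also gave 0. In oocytes all 12 libraries correlated best with one of their own number, but 1 pair fell under 0.1, and in cumulus cells 1 of 11 did. The median size change of the members in granulosa cells changed sign under several alternatives, and those of ENSMMUT00000065439.2 and ENSMMUT00000066812.2 did not.

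Depth ran from 20780476 to 52350387 estimated counts per library, and 3 or 4 libraries per group limited size tests to large changes. Low members rest on few reads, and reads shared with other transcripts add error that these intervals do not cover.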
